A study of Mus musculus with 10 samples.

Results

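Hhex, Nkx6-3 and Bhlhe22 are the 3 transcription factor genes described here, taken by name from a table of 19213 genes as candidate factors of the pancreatic delta cell, the islet cell that secretes somatostatin. All 3 are in the table. Hhex was abundant in delta cells and low in alpha and beta cells. Nkx6-3 and Bhlhe22 had at most 4 and 2 reads in any library of any cell type, so the data go against a label of delta cell factor for both of them, and Hhex carries most of the results.

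Hhex encodes a homeodomain protein that mostly represses transcription, in part through Groucho co-repressors, and in mice it is needed in the early foregut for the liver and pancreas and later for delta cells. It is also known from endothelial, liver and pancreatic duct cells. Nkx6-3 belongs to the NK6 homeobox family with Nkx6-1, a factor of beta cells, and Nkx6-2, and it is known in the mouse stomach, where it acts on the balance of gastrin and somatostatin cells. Bhlhe22 encodes a basic helix-loop-helix repressor known from neurons of the mouse retina, cortex and spinal cord.

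RNA was sequenced from islet cells sorted from adult mice that carried mIns1-H2b-mCherry, which marks beta cell nuclei under the mouse Ins1 promoter, together with a floxed YFP allele. YFP was switched on by Sst-Cre in delta cells or by Gcg-Cre in alpha cells, and beta cells came from the same islets as either. Each pool held the islets of 10 to 12 mice of 1 sex, kept overnight at 5.5 mM glucose before sorting. The groups were delta cells (1 male and 1 female library), alpha cells (2 male and 1 female) and beta cells (2 male and 3 female). All groups thus carried the mCherry transgene, a Cre driver and the YFP allele, and none is free of transgenes. Whether each library is a separate pool, and which libraries share islets, is not stated. The p-values therefore cover the spread seen among the libraries alone, part of which may be technical. A marker written by Cre stays on in any cell whose ancestors used the promoter.

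Expression was given as RPKM, the reads of a gene per kilobase of its length and of the total reads of the library. Recovered library totals were 18570481 to 20209291 reads in delta, 16688097 to 17441439 in alpha and 17755859 to 26684086 in beta libraries. The delta libraries also held transcripts of the other islet hormones. Gcg (glucagon) averaged 22243 RPKM in them, and the 11 alpha cell markers summed to 22148 to 24235 RPKM in delta, 250393 to 280146 in alpha and 773 to 3123 in beta libraries. The 13 beta cell markers summed to 31742 to 32534 RPKM in delta, 4470 to 5330 in alpha and 267068 to 495441 in beta libraries. Most of the delta sum was Iapp, which averaged 28946 RPKM in delta and 55437 in beta cells. The insulin genes Ins1 and Ins2 averaged 479 and 2561 RPKM in delta, against 46784 and 249624 in beta cells. The sum is therefore no measure of beta cell RNA in the delta libraries. The 9 delta markers summed to 54686 to 63242 RPKM in delta, 1475 to 3307 in alpha and 162 to 1027 in beta libraries. Of these 9, Cckbr was at 0 in the delta libraries. In sorted bulk cells, fewer cells of a type and less RNA per cell cannot be told apart.

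The homeobox of Hhex, the stretch that codes for the DNA-binding homeodomain, is shown because it is what makes Hhex a homeobox gene. The 180 bases are spliced coding sequence from GRCm38, 5′ to 3′ on the gene's strand, with 1 intron left out, and the capitals mark the 18 bases of the conserved run of codons 48 to 53 in the helix that contacts DNA.
Hhex, chr19:37437236-37437614 (+): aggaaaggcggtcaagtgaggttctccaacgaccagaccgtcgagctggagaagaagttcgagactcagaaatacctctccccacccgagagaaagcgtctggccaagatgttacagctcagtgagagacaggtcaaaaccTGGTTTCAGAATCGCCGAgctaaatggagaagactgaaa
No source used here says how reads that fit several genes were counted.

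The promoter of Hhex is shown because it is the member whose transcript differed between the cell types. RefSeq's promoter table matched 1 of the 3 genes. The 250 bases before the RefSeq start (GRCm38.p6, chr19:37434591-37434840, + strand) have in capitals each GGGCGG and each CCAAT, both searched on both strands. The gene model of Hhex used below starts earlier, at 37434810, so the end of this window lies inside it. The beginning of the window lies inside Gm38345, a gene annotated on the - strand at chr19:37432909-37434656.
Hhex: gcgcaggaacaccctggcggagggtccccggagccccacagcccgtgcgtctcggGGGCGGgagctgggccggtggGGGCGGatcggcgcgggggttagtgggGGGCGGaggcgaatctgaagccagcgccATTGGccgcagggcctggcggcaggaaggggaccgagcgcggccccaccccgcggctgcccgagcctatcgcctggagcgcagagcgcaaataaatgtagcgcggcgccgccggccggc
GGGCGG, the GC box, occurred 3 times, at 195, 174 and 147 bases before the start, and 32.7% of 32851 promoters of this length hold it at least once. CCAAT occurred 1 time, as its reverse complement ATTGG at 119 bases before the start, and 33.8% of promoters hold it. TATAAA, the TATA box, was not in this window on either strand, and 12.4% of promoters hold it. The homeodomain core TAAT was not found either, and 54.9% of promoters hold it. The E box CANNTG, the core bound by bHLH factors, was also not found, and 66.2% of promoters hold it. The GC content was 76.0%, against a median of 52.4%, and the window held 32 CpG, against a median of 6. Fewer CpG than that were in 95.4% of promoters.

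Hhex (ENSMUSG00000024986) lies at chr19:37434810-37440731 on the + strand of GRCm38, with 4 exons, and no other annotated gene overlaps it. Its level was 192.9 and 192.7 RPKM in delta libraries, from 6905 and 6336 reads. It was 5.414, 2.074 and 3.043 RPKM in alpha libraries, from 160, 62 and 94 reads, and 0.3445, 0.7858, 0.9222, 1.239 and 2.666 RPKM in beta libraries, from 16, 34, 29, 51 and 126 reads. Both delta libraries stood far above all others. Alpha and beta libraries overlapped, because beta replicate 5 lay above alpha replicate 2.

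The delta mean was 193 ± 0.195 RPKM (SD, n = 2), the alpha mean 3.51 ± 1.72 (n = 3) and the beta mean 1.19 ± 0.885 (n = 5). The coefficient of variation was 0.101% in delta, 48.9% in alpha and 74.3% in beta libraries. Counting error alone gave intervals of 188 to 198 RPKM for delta replicate 1 and 188 to 197 RPKM for delta replicate 2. The delta libraries thus lay closer together than counting error allows to be resolved. With n = 2, the value of 0.101% does not show that Hhex varies less in delta cells. The delta mean was 54.9 times the alpha mean and 162 times the beta mean. Within the table, 99.2% of genes had a lower mean than Hhex in delta libraries, 50.9% in alpha libraries and 42.3% in beta libraries, so Hhex was among the more abundant transcripts of delta cells and near the middle of the table in the other types.

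Hhex was tested with limma on log2(RPKM + 1) in the fit of all 12700 genes that reached 1 RPKM in at least 2 libraries, and it was the 1 member of the 3 in this fit. It was higher in delta than in beta cells by 6.58 on that log2 scale (SE 0.36, limma adjusted p = 8.54e-07), where 37.4% of all genes tested were called higher. In delta over alpha cells it was higher by 5.45 (SE 0.39, limma adjusted p = 7.68e-06), where 32.1% were called higher. Among all genes tested it ranked 2 by fold change in both comparisons, after Sst in delta minus beta and after Cd24a, a surface glycoprotein gene, in delta minus alpha. A total of 601 genes (4.73%), Hhex among them, were called higher in delta than in both other types by at least 1 log2 unit. Ordered by the smaller of the delta fold changes, Hhex came first, but it came 9th with a pseudocount of 0.1 and 19th with voom on recovered reads.

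Between alpha and beta cells Hhex was higher in alpha by 1.13 (SE 0.32, limma adjusted p = 0.0147), in a comparison that called 23.7% of all genes higher. Without alpha replicate 1, the library of highest Hhex among alpha cells, the difference was 0.81 (limma adjusted p = 0.0438). The order of levels was thus delta, alpha, beta, with the alpha and beta ranges overlapping.

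Hhex was not called for sex: male minus female was -0.27 (SE 0.28, limma adjusted p = 0.794), in a fit where 0.0472% of genes were called in either direction. Within female libraries the log2 difference was 6.31 for delta minus beta, 5.58 for delta minus alpha and 0.72 for alpha minus beta. Within male libraries these differences were 6.91, 5.45 and 1.47. The interaction of sex with the alpha minus beta difference was 0.74 (SE 0.68, limma adjusted p = 1.0). Alpha cells have 1 female library in that test, and the interaction was not tested for delta cells.

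**Figure D1:**
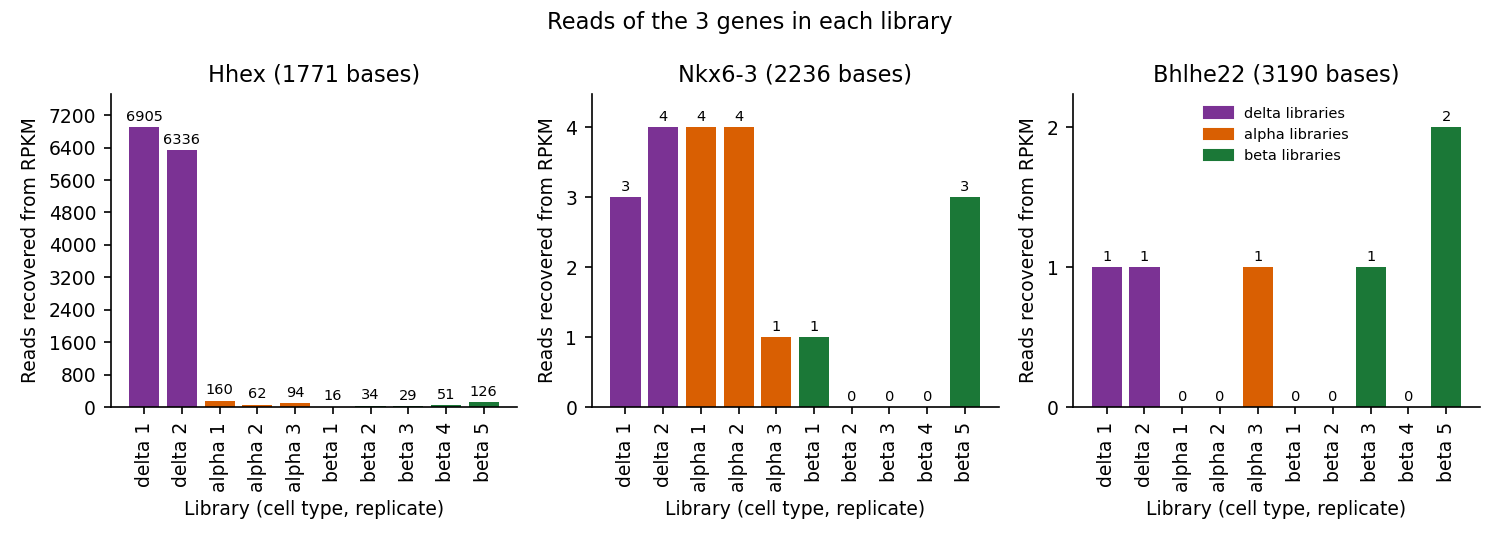
Reads recovered from RPKM for Hhex, Nkx6-3 and Bhlhe22 (y axis, linear, separate scale per panel) in each library of delta, alpha and beta cells (x axis), with the gene length behind each RPKM in the panel title. Hhex had 6905 and 6336 reads in delta libraries and 16 to 160 elsewhere, while Nkx6-3 and Bhlhe22 had 0 to 4 and 0 to 2 reads.

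Nkx6-3 (ENSMUSG00000063672, chr8:23153269-23158948, + strand, 3 exons) was at the edge of detection. It had 3 and 4 reads in delta libraries, 4, 4 and 1 in alpha libraries and 1, 0, 0, 0 and 3 in beta libraries. These are 0.06639 and 0.09633 RPKM in delta, 0.1072, 0.106 and 0.02564 RPKM in alpha, and 0.01705, 0, 0, 0 and 0.05028 RPKM in beta libraries. Delta and alpha libraries overlapped, and beta replicate 5 lay within the alpha range.

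For the 3 beta libraries with no read, 3 reads would be 0.0549, 0.0756 and 0.0577 RPKM for replicates 2, 3 and 4, so a level up to there was not detectable. Pooled over libraries, Nkx6-3 had 7 reads in delta, 9 in alpha and 4 in beta cells, or 0.0807 RPKM (95% exact Poisson interval 0.0325 to 0.166), 0.0789 (0.0361 to 0.15) and 0.0151 (0.00412 to 0.0387). Intervals cover counting error only. The delta and beta intervals overlap, and those of delta and alpha almost coincide.

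Nkx6-3 did not reach 1 RPKM anywhere and was not in the fit. The mean of delta libraries exceeded that of beta libraries by 0.0679 RPKM (two-sided exact permutation p = 0.0476, the smallest that 21 splits allow). Adjusted over the 6 tests of Nkx6-3 and Bhlhe22, the exact permutation p was 0.143. With this many libraries no adjusted p of the 6 tests could fall under 0.05. Delta and alpha means differed by 0.00176 RPKM (exact permutation p = 1.0, smallest possible 0.1). Alpha exceeded beta by 0.0661 RPKM (exact permutation p = 0.0357, adjusted 0.143). With all genes in the limma fit its adjusted p was 0.0725 for delta minus beta, 0.959 for delta minus alpha and 0.059 for alpha minus beta.

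Bhlhe22 (ENSMUSG00000025128, chr3:18054174-18057517, + strand, 1 exon) had 1 and 1 reads in delta libraries, 0, 0 and 1 in alpha libraries and 0, 0, 1, 0 and 2 in beta libraries. In RPKM these were 0.01551 and 0.01688 in delta, 0, 0 and 0.01797 in alpha, and 0, 0, 0.01765, 0 and 0.0235 in beta libraries. The groups overlapped, and the highest library was a beta library. The pooled level was 0.0162 RPKM in delta (95% exact Poisson interval 0.00196 to 0.0584), 0.00615 in alpha (0.000156 to 0.0342) and 0.00795 in beta cells (0.00164 to 0.0232).

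No difference of Bhlhe22 was called. The two-sided exact permutation p was 0.429 for delta minus beta, 0.4 for delta minus alpha and 0.821 for alpha minus beta. After adjustment over the 6 tests the exact permutation p was 0.643, 0.643 and 0.985. The smallest p that these exact permutation tests allow were 0.0476, 0.1 and 0.0179. No adjusted p of the 6 tests could thus fall under 0.05, so they cannot decide whether Bhlhe22 differs.

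The trace of Hhex outside delta cells was set beside that of Sst, the somatostatin gene, which the labels use to define delta cells. As a percent of the delta mean, Hhex was at 2.81, 1.08 and 1.58 in alpha libraries and at 0.179, 0.408, 0.478, 0.643 and 1.38 in beta libraries. Sst was at 5.19, 1.91 and 2.6 percent of its delta mean in alpha libraries and at 0.176, 0.354, 0.624, 0.946 and 1.63 percent in beta libraries. Hhex and Sst put the 5 beta libraries in one and the same order, and likewise the 3 alpha libraries. The delta libraries, at 192.9 and 192.7 RPKM, have no order by Hhex beyond counting error.

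Hhex per 1000 RPKM of Sst was 3.68 and 3.17 in delta libraries, 1.84, 1.92 and 2.07 in alpha libraries and 3.46, 3.92, 2.61, 2.32 and 2.89 in beta libraries. The beta range spans both delta values, and the 3 alpha libraries lie below all others. The part of delta cell RNA in the alpha and beta values was not tested.

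Other delta markers gave the same picture in part. Group means as a percent of the delta mean were 1.82 in alpha and 0.618 in beta cells for Hhex. They were 1.74 and 0.542 for Ghsr, the ghrelin receptor, 1.55 and 0.576 for Crhr2, a receptor of urocortins, and 2.13 and 0.573 for Spock3. Rbp4, a retinol carrier, stood at 18.3 in alpha and 1.16 in beta cells, and Frzb, a secreted Wnt inhibitor, at 2.01 in alpha and 52.9 in beta cells. All 8 delta markers tested were called higher in delta minus beta (37.4% of all genes tested) and in delta minus alpha (32.1%), and this list was chosen for that property. In delta minus beta, Frzb, with a log2 fold change of 0.91 (limma adjusted p = 0.0128), was at 0.63 and not called under median-ratio scaling (limma adjusted p = 0.0726), and at 0.69 with hormone reads left out (0.0562).

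**Figure D2:**
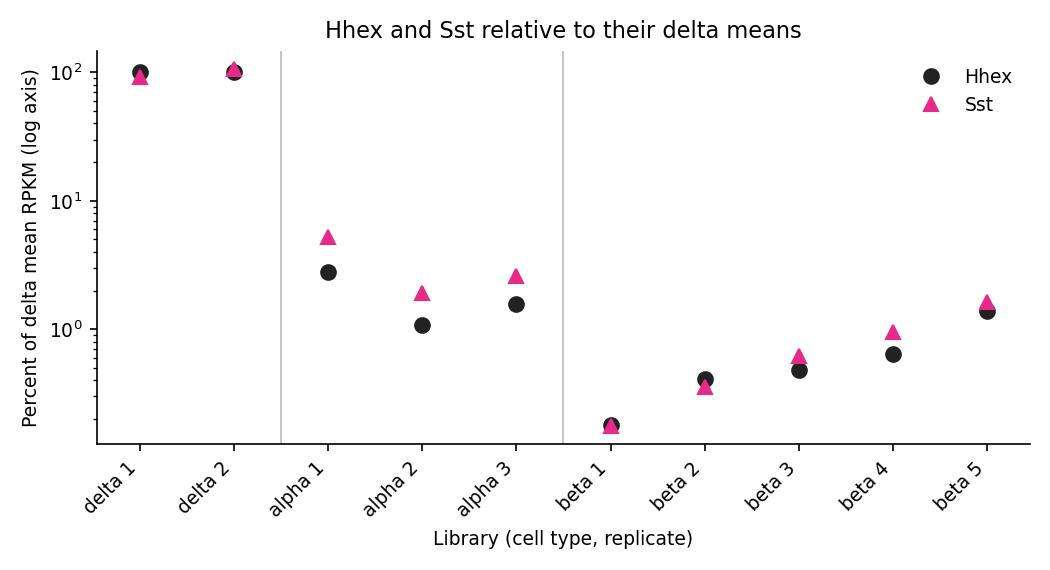
Hhex (circles) and Sst (triangles) in each library as a percent of the mean of the delta libraries (y axis, log scale), with libraries of delta, alpha and beta cells on the x axis. Hhex and Sst take the same order of libraries within alpha and within beta cells, and Hhex lies below Sst in the 3 alpha libraries.

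Other cell types that express Hhex were looked for with marker lists. The 12 endothelial markers summed to 8.37 to 11.2 RPKM in delta, 7.05 to 11.2 in alpha and 5.37 to 12.1 in beta libraries, and most of it in delta was Esam at 7.56 RPKM, with Pecam1 at 0.75 RPKM. The ranges of the 3 cell types overlap. Esam itself was called higher in delta than in beta cells, by 0.81 on the log2 scale (limma adjusted p = 0.00114), and its part in the Hhex difference was not tested. The 10 ductal markers summed to 736 to 832 RPKM in delta, 957 to 2107 in alpha and 631 to 840 in beta libraries, led in delta by Epcam at 401 and Krt7 at 190 RPKM, so they were highest in alpha libraries.

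Acinar markers (12 genes) summed to 863 to 1038 RPKM in delta, 99.3 to 3231 in alpha and 224 to 10270 in beta libraries, led in delta by Cela1 and Ctrb1. Immune markers (10 genes) summed to 75.8 to 88.8 RPKM in delta, 22.9 to 41.4 in alpha and 103 to 187 in beta libraries, with 3 genes (Emr1, Lyz2 and Cd3e) at 0 in delta and C1qa at 65.6 RPKM. Stellate and Schwann cell markers (10 genes) summed to 10.6 to 10.9 RPKM in delta, 7.44 to 7.95 in alpha and 2.5 to 3.82 in beta libraries. The 4 pancreatic polypeptide and epsilon cell markers summed to 44167 to 44801 RPKM in delta, 9607 to 15258 in alpha and 809 to 1560 in beta libraries, so Ppy and Pyy were highest in the delta sort too. These last 2 lists moved with Hhex, and their part in its difference was not tested.

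Among the homeobox relatives of Hhex and Nkx6-3 (the NKL class), 19 of 35 listed genes were in the table and 3 were tested. All 3 were called lower in delta minus beta, where 13.3% of all genes tested were called lower, with a median log2 fold change of -0.89 against 0.25 over all genes. Nkx6-1 was at 6.78 ± 0.121 RPKM in delta (n = 2), 8.88 ± 0.66 in alpha (n = 3) and 97.0 ± 21.8 in beta cells (n = 5), a delta minus beta log2 fold change of -3.61 (SE 0.16, limma adjusted p = 2.77e-07). Nkx2-2, needed for beta cell formation in mice, was at 24.5 ± 1.55 RPKM in delta, 36.2 ± 1.66 in alpha and 42.2 ± 4.57 in beta cells, and it was lower in delta than in beta (limma adjusted p = 0.000609) and in alpha cells (limma adjusted p = 0.00722). Barhl1, a factor of neurons, averaged 0.293 RPKM in delta, 0.0792 in alpha and 1.39 in beta cells. It passed the filter through its beta libraries alone, at 1.09 to 1.71 RPKM, against at most 0.308 in delta and 0.109 in alpha libraries. Its lower call is therefore tied to how it was selected, and the median of -0.89 is its own fold change.

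In delta minus alpha, Nkx2-2 was the 1 NKL gene called lower, where 5.89% of all genes were, with a median of -0.37 against 0.26. Nkx6-1 differed there by -0.37 (limma adjusted p = 0.131), and by -0.65 (limma adjusted p = 0.0373) under median-ratio scaling. In alpha minus beta, Nkx6-1 and Barhl1 were the 2 called lower, where 30.3% of all genes were, with a median of -1.15 against -0.02. That median is the value of Barhl1, which passed the filter through beta libraries alone. The 16 untested NKL genes did not exceed 1.59 RPKM in any library. Emx1, which is among them, was at 0.78 and 1.05 RPKM in the delta libraries. Its means were 0.0341 RPKM in alpha and 0.0096 in beta cells, and its difference was not tested. Nkx6-2, the third NK6 gene, was at 0 in delta and averaged 0.0918 RPKM in alpha and 0.0416 RPKM in beta cells, so none of the NK6 genes was highest in delta cells beyond its spread.

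The bHLH relatives of Bhlhe22 had 25 of 36 listed genes in the table and 5 tested. Neurog3, the proendocrine factor of the embryonic pancreas, was at 59.2 ± 0.581 RPKM in delta, 1.2 ± 0.651 in alpha and 0.452 ± 0.176 in beta cells. Its log2 fold change was 5.37 for delta minus beta (SE 0.20, limma adjusted p = 9.37e-08) and 4.84 for delta minus alpha (SE 0.22, limma adjusted p = 6.64e-07), the pattern nearest to that of Hhex in this list. Neurog3 passed the filter only with its delta libraries, being at 0.731 to 1.95 RPKM in alpha and at most 0.658 in beta libraries. Its higher calls are therefore tied to how it was selected. Atoh8 was higher in delta than in beta cells (1.20, limma adjusted p = 0.000283) and lower than in alpha cells (-1.81, limma adjusted p = 5.22e-05).

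Neurod1, a late endocrine factor, averaged 54.7 RPKM in delta, 104 in alpha and 75.6 in beta cells, with a limma adjusted p of 0.214 for delta minus beta and 0.024 for delta minus alpha. Under median-ratio scaling the first of these was 0.0158, with Neurod1 lower in delta. Bhlha15, a factor of secretory cells, averaged 16.4 RPKM in delta, 5.92 in alpha and 19.7 in beta cells, and was higher in delta than in alpha cells (1.30, limma adjusted p = 0.00821, and 0.0589 under median-ratio scaling). In all, 2 of 5 were higher and 0 lower in delta minus beta (median -0.16 against 0.25), near the 37.4% of all genes called higher there, with 13.3% lower. In delta minus alpha 2 were higher and 3 lower (median -0.94 against 0.26), where 32.1% and 5.89% of all genes were. In alpha minus beta 3 were higher and 1 lower (median 0.55 against -0.02), where 23.7% and 30.3% of all genes were. None of the 20 untested relatives passed 0.941 RPKM in a library.

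E proteins pair with bHLH factors, and Id proteins block such pairs. All 7 of these partner genes tested were called higher in delta minus beta, where 37.4% of all genes tested were (median 1.34 against 0.25). Tcf4 averaged 12.3 RPKM in delta, 5.2 in alpha and 4.54 in beta cells, and Tcf12 averaged 15.8, 13.5 and 9.73 RPKM in the same order. Tcf3, at 13.3 RPKM in delta, 11.1 in alpha and 9.57 in beta cells, lost its call under median-ratio scaling (limma adjusted p = 0.236), under quantile normalization (0.379) and with hormone reads left out (0.105).

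Id2 was the most abundant of them in delta cells, at 155 ± 25.6 RPKM in delta, 71.4 ± 10.5 in alpha and 48.2 ± 8.8 in beta cells, with log2 fold changes of 1.69 over beta (SE 0.19, limma adjusted p = 8.77e-05) and 1.08 over alpha cells (SE 0.20, limma adjusted p = 0.00284). Id1 averaged 8.53 RPKM in delta, 66.3 in alpha and 1.72 in beta cells, and Id3 averaged 27.1 RPKM in delta, 106 in alpha and 12.0 in beta cells. Id1 and Id3 were thus lower in delta than in alpha cells while above their beta level. Id4 averaged 6.07 RPKM in delta, 3.8 in alpha and 0.929 in beta cells. In delta minus alpha 3 of the 7 were higher and 2 lower (median 0.24 against 0.26), where 32.1% and 5.89% of all genes were. Of the 3, Tcf4 differed by 1.08, by 0.79 under median-ratio scaling (limma adjusted p = 0.051) and by 0.82 under quantile normalization (limma adjusted p = 0.0145). Id4 differed by 0.52, and by 0.25 under median-ratio scaling (limma adjusted p = 0.31). In alpha minus beta 5 were higher and 0 lower (median 0.60 against -0.02), where 23.7% and 30.3% of all genes were. Without delta replicate 1, the number higher in delta minus beta was 4.

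Groucho proteins are co-repressors that Hhex is known to bind. Of 6 tested, 4 were called higher and 2 lower in delta minus beta (median 1.04 against 0.25), where 37.4% and 13.3% of all genes were. Tle4 averaged 7.89 RPKM in delta, 3.05 in alpha and 1.66 in beta cells, with log2 fold changes of 1.76 over beta (SE 0.16, limma adjusted p = 2.64e-05) and 1.13 over alpha cells (SE 0.18, limma adjusted p = 0.000997). Tle1, Tle2 and Tle6 rose in delta over beta cells by 0.98, 1.11 and 1.43 (limma adjusted p = 0.000102, 0.00147 and 9.2e-05). Tle3, at 16.3 RPKM in delta, 10.1 in alpha and 28.5 in beta cells, and Aes, a short member that lacks most of the repressor domains, at 255, 238 and 338 RPKM in that order, differed between delta and beta cells by -0.77 and -0.41 (limma adjusted p = 0.00203 and 0.0225). Against alpha cells Tle3 and Tle4 were higher and 0 lower (median 0.46 against 0.26), where 32.1% and 5.89% of all genes were, and the call of Tle3 was lost under median-ratio scaling (limma adjusted p = 0.128). In alpha minus beta 4 were higher and 2 lower (median 0.61 against -0.02), where 23.7% and 30.3% of all genes were.

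Of 42 islet transcription factors 38 were tested, a list that holds Neurog3, Neurod1, Nkx6-1 and Nkx2-2 as well. In delta minus beta 24 were higher, 4 lower and 10 not called (median 0.99 against 0.25), where 37.4% of all genes were higher and 13.3% lower. In delta minus alpha 17 were higher, 7 lower and 14 not called (median 0.41 against 0.26), where 32.1% and 5.89% of all genes were. In alpha minus beta 16 were higher, 11 lower and 11 not called (median 0.25 against -0.02), where 23.7% and 30.3% of all genes were. These counts hold genes that passed the filter only through the cell type where they are high. Sox9 and Nr5a2 passed through delta libraries, with at most 0.235 and 0.138 RPKM elsewhere. Mnx1 passed through beta libraries, with at most 0.244 RPKM elsewhere. Neurog3 passed only with its delta libraries. The calls of these genes are tied to how they were selected. Fev, a serotonin neuron factor, averaged 23.0 RPKM in delta, 23.1 in alpha and 0.923 in beta cells, and Etv1 averaged 42.5, 46.9 and 3.81 RPKM in that order, so both were far above their beta level in delta cells, with limma adjusted p of 0.986 and 0.679 against alpha cells. Mafa, an activator of the insulin genes, averaged 1.74 RPKM in delta, 1.29 in alpha and 157 in beta cells, and Mnx1 averaged 0.0895, 0.176 and 11.7 RPKM in that order. Pax6 and Insm1, general endocrine factors, were not called between delta and beta cells (limma adjusted p = 0.0654 and 0.62). Hhex had the largest fold change among the listed factors in both delta comparisons.

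Over all genes tested, median-ratio scaling moved the median log2 difference to 0.01 for delta minus beta and -0.019 for delta minus alpha, against 0.253 and 0.26 on deposited values. Higher calls then made up 50.7% of all calls in delta minus beta, against 73.7% on deposited values, and 57.2% in delta minus alpha, against 84.5%. Small differences of the partner and co-repressor genes are therefore to be read against that median, while those of Hhex and Neurog3 exceed it by far.

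**Figure D3:**
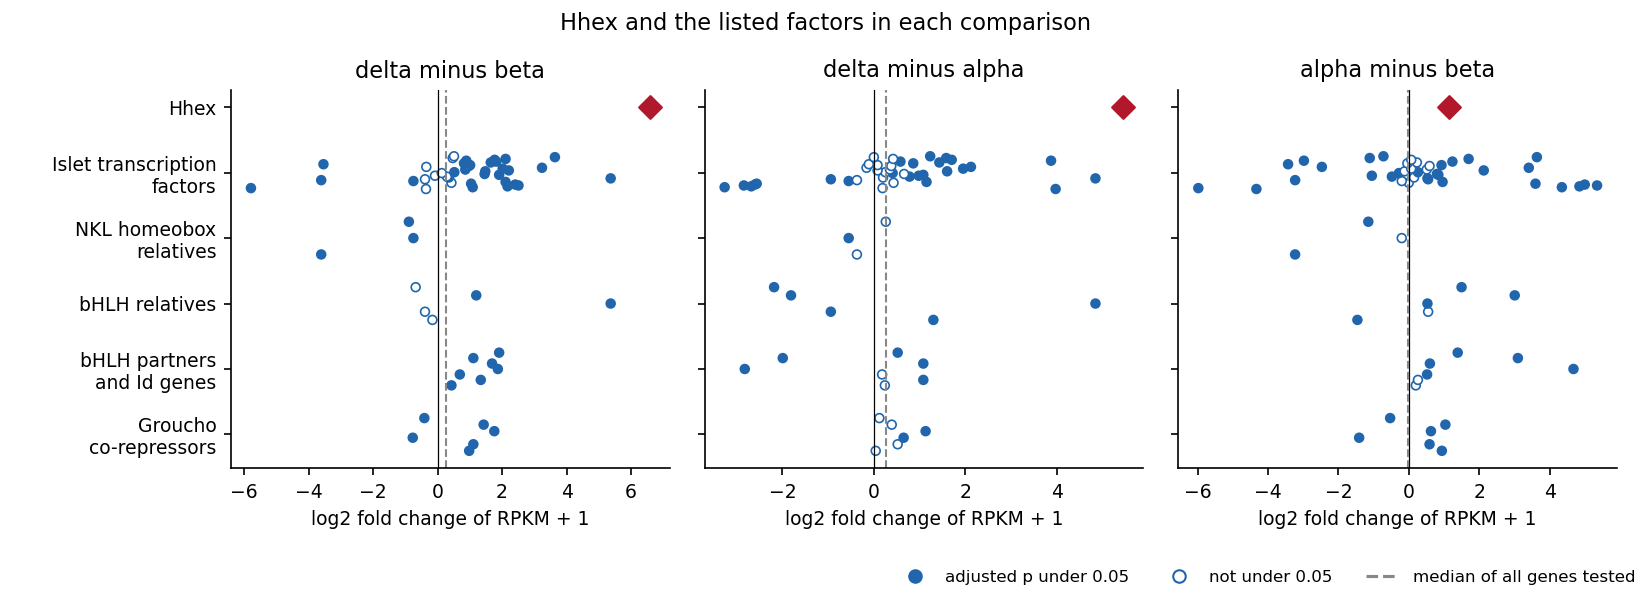
Log2 fold changes of RPKM + 1 (x axis, separate scale per panel) for Hhex (diamond) and the tested genes of 5 lists of transcription factors, partners and co-repressors (rows), for delta minus beta, delta minus alpha and alpha minus beta. Filled points have a limma adjusted p under 0.05, open points do not, and the dashed line is the median of all genes tested; Hhex lies right of every gene of these lists in both delta comparisons.

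The genes most like Hhex were those with the highest Pearson correlation of log2(RPKM + 1) over the 10 libraries, a measure set mostly by the gap between delta and the other libraries. Mest, an imprinted hydrolase gene, came first (r = 0.9988), with 93.5 ± 8.08 RPKM in delta, 2.43 ± 0.926 in alpha and 0.896 ± 0.587 in beta cells. Slc16a7, a monocarboxylate transporter (0.9954), Ghsr (0.9953), Dgkb, a diacylglycerol kinase (0.9949), and Efnb3, an ephrin (0.9946), followed. Ghsr averaged 48.4 ± 2.43 RPKM in delta, 0.842 ± 0.524 in alpha and 0.263 ± 0.262 in beta cells.

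Among the listed factors the nearest were Neurog3 (0.9902), Nr5a2 (0.9765) and Sox9 (0.9753), a duct and progenitor factor. Sox9 averaged 3.51 RPKM in delta, 0.152 in alpha and 0.107 in beta cells, and Nr5a2 averaged 2.63, 0.122 and 0.0521 RPKM in that order. Of 12699 genes, 19 had r over 0.99 and 322 over 0.95, so many genes share the delta-high pattern. By Spearman's rho 17 genes, ties included, had at least the fifth highest value of 0.976, and of the 5 genes above Mest was the 1 among them.

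**Figure D4:**
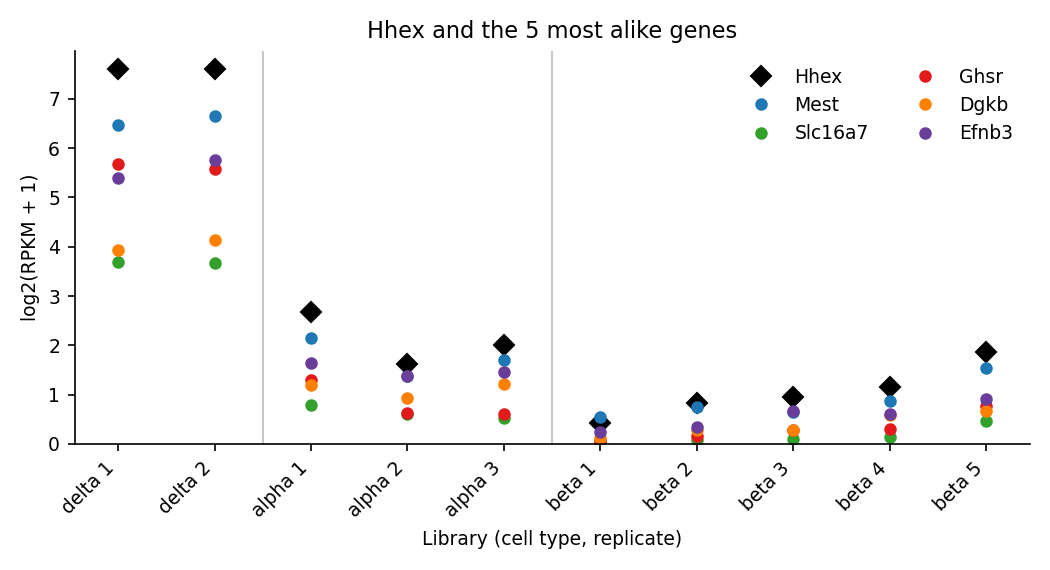
Level of Hhex (diamonds) and the 5 genes of highest Pearson correlation with it (circles) as log2(RPKM + 1) on the y axis, per library of delta, alpha and beta cells on the x axis. All 6 genes are high in both delta libraries, and beta replicate 5 lies highest among the beta libraries for each. The choice by correlation favours such a shared order.

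**Figure D5:**
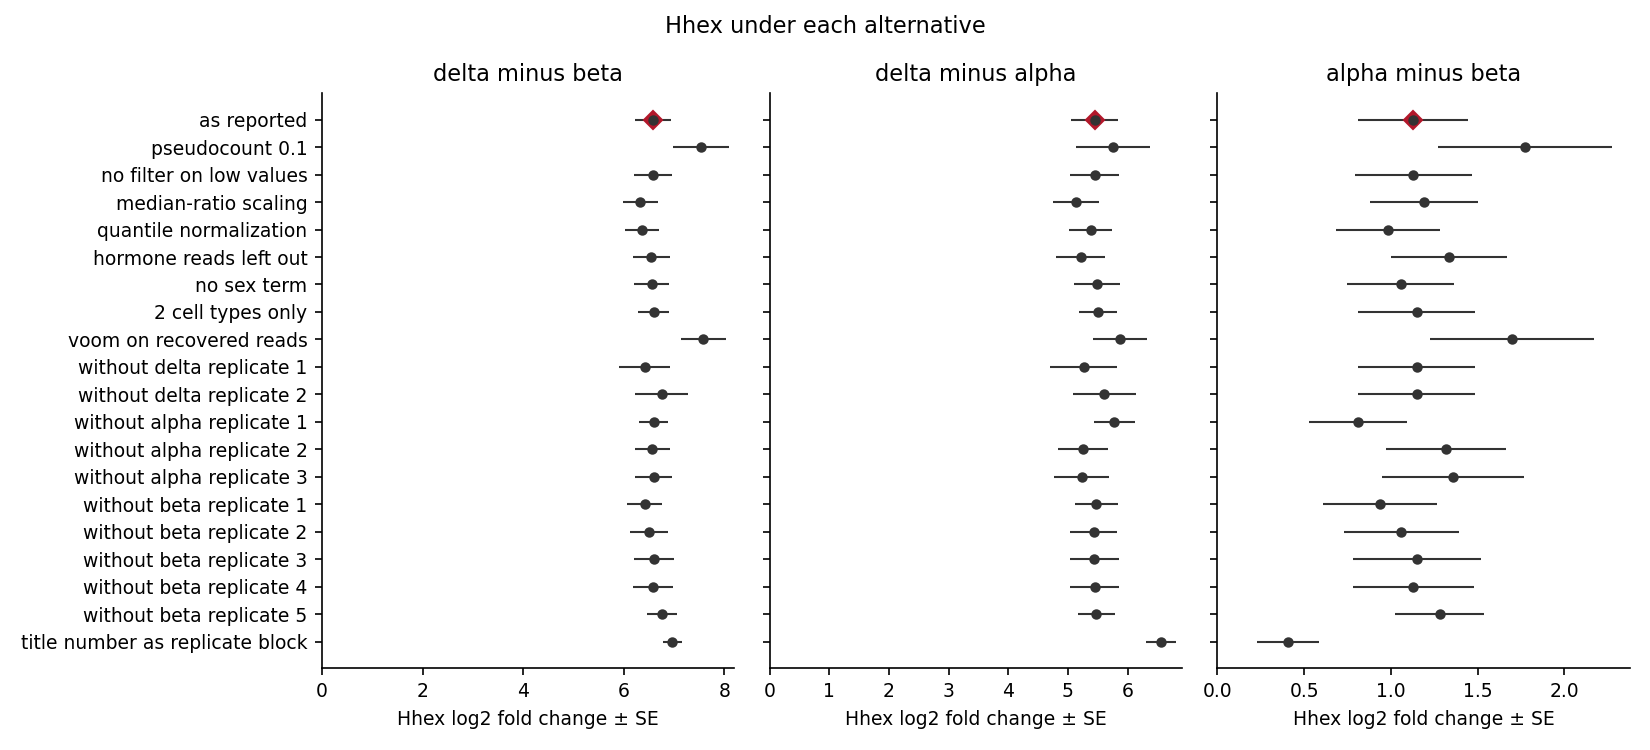
Log2 fold change of Hhex with its standard error (x axis, separate scale per panel) as reported (diamond) and under each of 19 alternatives (rows) for delta minus beta, delta minus alpha and alpha minus beta. The values lay between 6.33 and 7.57, between 5.14 and 6.56, and between 0.41 and 1.77. The lowest alpha minus beta value, with libraries paired by their title numbers, was the 1 value that was not called (limma adjusted p = 0.101).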

How the data were processed

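The authors deposited 1 table of RPKM values for 19213 genes in 10 libraries. STAR 2.4, featureCounts and edgeR 3.12.0 with build GRCm38.p3 are named per the submitters' processing notes. Which annotation and scaling factors went into them is not given in the sources read here. The TruSeq RNA kit v2, named in the labels' protocols, does not keep the strand. Low RPKM values are whole multiples of 1 read, so library totals, read counts and gene lengths were recovered from these steps (within 0.05 read). Lengths were set to give whole reads, so whole values do not check them.

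The fit used limma 3.58.1 (R 4.3.3, trend on the mean) on log2(RPKM + 1), with terms for cell type and sex, over 12700 genes with at least 1 RPKM in at least 2 libraries. Fold changes on this scale are understated for low genes. A gene can pass the filter through a single cell type, which favours a call in that direction. P-values were adjusted over all genes by Benjamini-Hochberg, and called under 0.05. Nkx6-3 and Bhlhe22, under the filter, were compared with exact permutation tests on RPKM. The scripts were tested on simulated data. Sequences came from RefSeq (promoter) and GENCODE M21 gene models on GRCm38.

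The members and lists were chosen with earlier results of these data known. Genes were named by rule: the members, the hormones, the 5 genes and 3 listed factors most like Hhex, every tested member of lists of 8 or fewer, in larger lists the 3 largest called differences in each direction for delta minus beta and the 2 most abundant uncalled members, and the leading 2 markers of each other cell type. Other delta markers, Nkx6-2, Emx1, the genes at 0 and those whose calls change are named outside it, after their values were seen. Some named members of the lists and some sequences are not reported here. Alternatives were another pseudocount, no filter, median-ratio, quantile and hormone-free scaling, no sex term, 2 cell types only, voom on recovered reads, each library left out, and libraries paired by title number (added after seeing the data).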

Additional observations from a re-analysis of the deposited data

Results flagged for a closer look

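A total of 38 genes, the members, Sst, the genes most like Hhex and listed factors, were looked at in the 5 beta libraries, and in 4 of them 1 library stood apart from the others by more than Dixon's 95% limit (0.71 of the range). Chance flags about 1 in 20 independent groups, a rate that cannot be applied here. Mest, Slc16a7 and Ghsr were included because they vary with Hhex over these same libraries. The library was beta replicate 5 in each case, which that choice favours for Mest, Slc16a7 and Ghsr, since Hhex is highest there too. Id4 was included as a bHLH partner gene, not by its likeness to Hhex. Mest was at 1.92 RPKM there, against 0.467 to 0.837 in the other beta libraries. Slc16a7 was at 0.387 RPKM, against 0.0315 to 0.107. Ghsr was at 0.71 RPKM, against 0.043 to 0.233. Id4 was at 1.6 RPKM, against 0.551 to 0.856. The same library had the highest Hhex (2.666 RPKM) and Sst (922.4 RPKM) of the beta libraries. Without it the delta minus beta difference of Hhex was called as before, and the part of delta cell RNA in these values was not tested.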

How the results depend on the processing

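Hhex kept its direction in all 19 alternatives of each cell type comparison. It kept its call in all 19 for delta minus beta (6.33 to 7.57, highest limma adjusted p 6.26e-05) and delta minus alpha (5.14 to 6.56, 0.00047), and in 18 for alpha minus beta (0.41 to 1.77). Male minus female was called in none of 3 alternatives (limma adjusted p 0.771 to 0.843). The replicate numbers follow accession order and pair no libraries. The numbers in the titles run consecutively for 4 pairs of a delta or alpha and a beta library of 1 sex, which the labels do not explain. Within these pairs the deviations from the cell type means correlated at 0.001, 0.372, 0.269 and 0.464. With a sex term as well, they correlated at -0.613, 0.282, 0.115 and 0.273 in the same order. With the title number as a replicate block, an alternative chosen after seeing the data, with 8 libraries and 2 residual degrees of freedom, Hhex differed by 6.97 (limma adjusted p = 1.38e-06) for delta minus beta, 6.56 (3.06e-05) for delta minus alpha and 0.41 (0.101) for alpha minus beta. Beta replicate 4 and alpha replicate 1, the highest alpha library, have no partner and are left out there. The block gave 6169 higher and 1736 lower calls for delta minus beta.

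Counts over all genes moved more. Higher and lower calls in delta minus beta, 4750 and 1692 as reported, were 3188 and 3094 under median-ratio scaling, 2852 and 3200 under quantile normalization, 3399 and 2796 with hormone reads left out, 2335 and 938 without delta replicate 1, and 3219 and 1072 without delta replicate 2. In delta minus alpha, 4076 and 748 as reported, they were 1857 and 1391, 1963 and 2040, 1869 and 1406, 2181 and 500, and 2477 and 481 in the same order of settings. In alpha minus beta, 3013 and 3851 as reported, they were 1838 and 2784 without alpha replicate 3, and 3947 and 3264 with hormone reads left out. Islet factors lower in delta minus beta were 7 under median-ratio scaling and with hormone reads left out, against 4. The cause was not tested. Depth limits Nkx6-3 and Bhlhe22: 3 reads are 0.0503 to 0.0804 RPKM for Nkx6-3 and 0.0352 to 0.0564 for Bhlhe22, depending on the library.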
